A study of Mus musculus with 103 samples.

Results

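The 2 kinds of methionine tRNA in mouse cortex were compared in level and in their response to neuronal loss of Nsun2, a tRNA cytosine methyltransferase. Members were chosen by name, as every nuclear isodecoder (tRNAs that share an anticodon but differ elsewhere in sequence) listed as initiator (iMet-CAT) or elongator (Met-CAT) methionine tRNA. In dm-Hydro-tRNAseq, which sequences demethylated tRNA after partial alkaline hydrolysis into fragments, these were 9 of 162 isodecoders, with 3 initiators and 6 elongators. In YAMAT-seq, which captures full-length mature tRNA with Y-shaped linkers and counts molecular identifiers, they were 9 of 240 tRNAs, of which 218 are nuclear, with 4 initiators and 5 elongators. Over both tables there were 10 members, 8 of them in both. The mitochondrial methionine tRNA was not a member.

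Nsun2 KO samples came from adult cortex of Nsun2 floxed, Camk2a-Cre positive mice, and WT samples from adult cortex of Nsun2 floxed, Camk2a-Cre negative mice, so that all animals carried the floxed allele. The Camk2a promoter drives Cre in excitatory forebrain neurons, and the tissue also holds inhibitory neurons, glia and vessels that keep the gene. In bulk cortex, fewer cells of a type and less RNA per cell cannot be told apart. dm-Hydro-tRNAseq had 3 KO and 3 WT mice, YAMAT-seq had 4 KO and 3 WT mice, and Riboseq, read here for mRNA and ribosome footprints, had 2 KO and 2 WT mice. By the animal numbers in the labels, 6 mice were measured by both tRNA assays, KO 1, 2 and 3 of dm-Hydro-tRNAseq being KO 2, 3 and 4 of YAMAT-seq. In the Riboseq mice, Nsun2 mRNA was 362 and 368 normalized counts in KO, against 1292 and 1120 in WT, so that KO cortex kept 30.3% of the WT level.

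Both kinds of methionine tRNA carry the anticodon CAU (CAT in DNA) and are charged by the same methionyl-tRNA synthetase, but they serve different steps. The initiator is delivered to the P site of the small ribosomal subunit by eIF2 with GTP and reads the start codon, whereas the elongator is delivered by eEF1A to the A site and reads every internal AUG codon. Eukaryotic initiators end their acceptor stem in an A:U pair where elongators have G:C, 1 of the features that keep them apart. NSUN2 places 5-methylcytosine in many tRNAs, mostly around the variable loop, and its loss causes intellectual disability in humans.

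The gene sequences show how alike the members of each kind are, which bears on how reads are assigned to them. RefSeq (GRCm38.p6) lists 16 nuclear methionine tRNA genes with 8 distinct sequences, 11 of the genes on chromosome 13. The 9 initiator genes have 3 sequences of 72 nucleotides, and the 7 elongator genes have 5 sequences of 73 nucleotides. The RefSeq names were not matched to the isodecoder numbers of the tables, so the sequences stand for each kind and for no numbered isodecoder. Over both assays 4 initiators and 6 elongators were listed, more than these sequences, so not every member has its own sequence here. The 3 initiator sequences and 1 elongator sequence follow, 5′ to 3′, with the anticodon in capitals. Initiator A is carried by 7 genes, among them n-TMcat5 at chr13:23500080-23500151 on the plus strand and n-TMcat11 at chr3:90475860-90475931 on the minus strand. Initiator B is n-TMcat2 at chr13:21907111-21907182 on the plus strand, and initiator C is n-TMcat3 at chr15:69396623-69396694 on the minus strand. Elongator A is carried by n-TMcat14 at chr13:21167604-21167676 on the plus strand and by n-TMcat15.
initiator A: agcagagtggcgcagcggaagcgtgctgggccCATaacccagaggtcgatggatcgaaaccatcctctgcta
initiator B: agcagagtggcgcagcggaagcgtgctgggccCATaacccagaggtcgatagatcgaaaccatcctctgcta
initiator C: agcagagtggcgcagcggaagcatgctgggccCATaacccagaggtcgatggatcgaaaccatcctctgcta
elongator A: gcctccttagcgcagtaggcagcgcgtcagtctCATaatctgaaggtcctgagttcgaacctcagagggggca

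In the initiators the first base, a, faces t, the base before the last, and in the elongator g faces c. The CCA tail that is added to every tRNA is not part of the gene. Counted from 1 at the 5′ end, initiator B differs from initiator A by G51A alone, and initiator C from initiator A by G23A alone. The elongators differ more among themselves, by 2 to 9 bases (87.7% to 97.3% identity). Of all 20-base windows of initiator A, 100.0% also occur in initiator B or C, and 87.0% of those of elongator A occur in another elongator. No 20-base window is shared between an initiator and an elongator. For initiators B and C 62.3% of such windows occur in another initiator, and for the other elongator sequences 16.7% to 88.9% in another elongator. A stretch of that length tells the 2 kinds apart, and often does not tell members of a kind from each other. With 30-base windows, 95.3% of those of initiator A and 75.0% of those of elongator A occur in another member of the kind. For the other elongator sequences it was 0.0% to 86.4%. How dm-Hydro-tRNAseq values, which come from fragments, divide among single isodecoders is therefore uncertain in both kinds. YAMAT-seq captures full-length tRNA, and its reads were not set against these windows.

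In WT cortex, the 2 assays ranked the kinds differently. By dm-Hydro-tRNAseq, in CPM (reads scaled to a common library size), the 6 elongators summed to more than the 3 initiators, with 1357 ± 51.4 CPM against 1065 ± 115 CPM (SD, n = 3). By YAMAT-seq (normalized counts) the elongators summed to less, with 271 ± 99.8 against 1893 ± 152 for the initiators (SD, n = 3). The kinds differ by 1 nucleotide in length, so a value per length gives the same order. Initiators were the 25th and elongators the 21st of 48 anticodon pools by dm-Hydro-tRNAseq, and the 13th and 38th of 46 nuclear pools by YAMAT-seq. The methionine values below are given within an assay for this reason.

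Within dm-Hydro-tRNAseq, the WT level order was Met-CAT-1-1, iMet-CAT-1-1, Met-CAT-2-1, iMet-CAT-2-1, Met-CAT-3-1, iMet-CAT-3-1, Met-CAT-4-1, Met-CAT-5-1 and Met-CAT-6-1. Neighbours in that order had separate ranges over the 3 WT mice in 3 of 8 pairs, the top pair, iMet-CAT-1-1 with Met-CAT-2-1, and iMet-CAT-3-1 with Met-CAT-4-1. Met-CAT-6-1 had the lowest WT level of all 162 isodecoders. Its mean was 22.4 CPM in KO and 18.5 CPM in WT. The authors kept isodecoders with at least 20 CPM in a group, so it was listed through its KO value only. Its difference is therefore left out of the counts by sign and the medians over elongators. It stays among the 9 members tested and in the elongator sums, ratios and shares. Of the elongator sum it made up 1.38% in KO and 1.36% in WT.

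**Figure D1:**
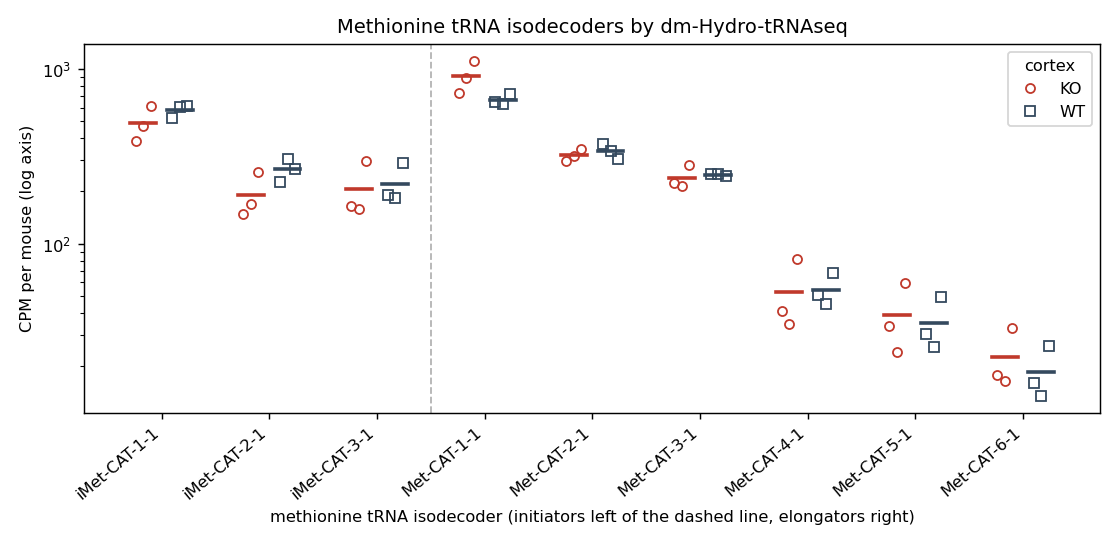
CPM (log axis) of each methionine tRNA isodecoder in each mouse by dm-Hydro-tRNAseq, KO circles left of WT squares, bars at the means, initiators left of the dashed line. For Met-CAT-1-1 the KO mice lie between 730 and 1112 CPM, all above the WT mice at 632 to 716 CPM.

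All 3 initiators averaged less in Nsun2 KO than in WT cortex by dm-Hydro-tRNAseq, and none passed the test. Under median log ratio scaling iMet-CAT-3-1 turned slightly positive (0.015 on the log2 scale). iMet-CAT-1-1, the most abundant initiator, had 386, 468 and 611 CPM in KO mice 1, 2 and 3, against 525, 603 and 610 CPM in WT mice 1, 2 and 3. KO mice 1 and 2 were below every WT mouse, and KO mouse 3 was at the top of the WT range. Its log2 fold change was −0.27 (95% interval −0.77 to 0.24, limma, adjusted p = 0.754). Leaving out KO mouse 1 gave −0.11, leaving out KO mouse 3 gave −0.44, and median log ratio scaling gave −0.12. iMet-CAT-2-1 had 148, 169 and 255 CPM in KO, against 225, 306 and 267 CPM in WT. Here too only KO mouse 3 reached into the WT range, and the log2 fold change was −0.50 (−1.01 to 0.01, adjusted p = 0.299), or −0.73 without that mouse (adjusted p = 0.0188). iMet-CAT-3-1 had 163, 158 and 298 CPM in KO, against 190, 182 and 289 CPM in WT, with a log2 fold change of −0.13 (adjusted p = 0.934). For this isodecoder the library numbered 3 was the highest of each genotype.

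Of the elongators, the most abundant stood apart. Met-CAT-1-1 had 730, 891 and 1112 CPM in KO, against 643, 632 and 716 CPM in WT, and every KO mouse was above every WT mouse. Its log2 fold change was 0.44 (−0.06 to 0.94, adjusted p = 0.420), which did not pass the test. Every KO library lay above every WT library for 1.23% of the 162 isodecoders, 2 in all. When each library was scaled by its median log ratio to the mean library, the log2 fold change of Met-CAT-1-1 was 0.58 (adjusted p = 0.0349), past the threshold.

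The other elongators overlapped between the genotypes. Met-CAT-2-1 had 296, 316 and 349 CPM in KO, against 370, 337 and 305 CPM in WT, and Met-CAT-3-1 had 222, 213 and 281 CPM in KO, against 249, 251 and 242 CPM in WT. Their log2 fold changes were −0.07 and −0.06, and both turned positive when libraries were scaled by their sums (0.01 and 0.02). Met-CAT-4-1 had 40.9, 34.9 and 81.9 CPM in KO, against 50.7, 45.0 and 67.8 CPM in WT. Met-CAT-5-1 had 33.7, 23.9 and 59.4 CPM in KO, against 30.6, 25.5 and 49.5 CPM in WT. In both of these, and in Met-CAT-6-1, the libraries numbered 3 were the highest of each genotype. These libraries also had the highest summed CPM (KO 498783, WT 503572), and the part of this in the members' values was not tested.

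Of the 9 members, 0 passed the adjusted threshold in dm-Hydro-tRNAseq and 0 had an unadjusted p under 0.05 (limma), beside 4.94% and 16% of all 162 isodecoders. All 8 isodecoders called were lower in KO. With the mouse number as a block, since same-numbered KO and WT libraries deviated together, 19.8% of isodecoders were called and still no member (lowest adjusted p = 0.0530, iMet-CAT-2-1). The median log2 fold change was −0.27 for the 3 initiators and −0.06 for the 5 elongators other than Met-CAT-6-1, beside −0.13 over all isodecoders. All 3 initiators and 3 of these 5 elongators were negative, beside 63% of all isodecoders.

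By YAMAT-seq, iMet-CAT-1-1 was the 13th most abundant of 218 nuclear tRNAs in WT cortex and held most of the initiator sum. It had 1496, 1079, 1584 and 1463 normalized counts in KO mice 1 to 4, against 1608, 1832 and 1861 in WT mice 1 to 3. Every KO mouse was below every WT mouse, with a log2 fold change of −0.34 (−0.70 to 0.02, adjusted p = 0.170) that did not pass the test. It was −0.22 without KO mouse 2 and −0.066 (adjusted p = 0.602) when libraries were divided by their sums. Every KO library was below every WT library for 15.1% of the 166 tRNAs tested. The KO libraries were the deeper ones, with 98977 to 139036 steps (the sum of a library in units of its smallest value, taken as 1 read, which is not certain) against 77910 to 96033 in WT, and the part of this in the difference was not tested.

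The minor initiators were far below it. iMet-CAT-2-1 had 104, 76.3, 42.3 and 64.8 normalized counts in KO, against 98.3, 36.5 and 136 in WT. iMet-CAT-3-1 had 44.8, 44.8, 36.3 and 60.4 in KO, against 34.2, 26.5 and 47.8 in WT. The genotypes overlapped in both, with log2 fold changes of −0.20 (adjusted p = 0.722) and 0.37 (adjusted p = 0.441). iMet-CAT-4-1 was listed at 0 in 6 of 7 libraries, and had 1.11 normalized counts in KO mouse 2.

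**Figure D2:**
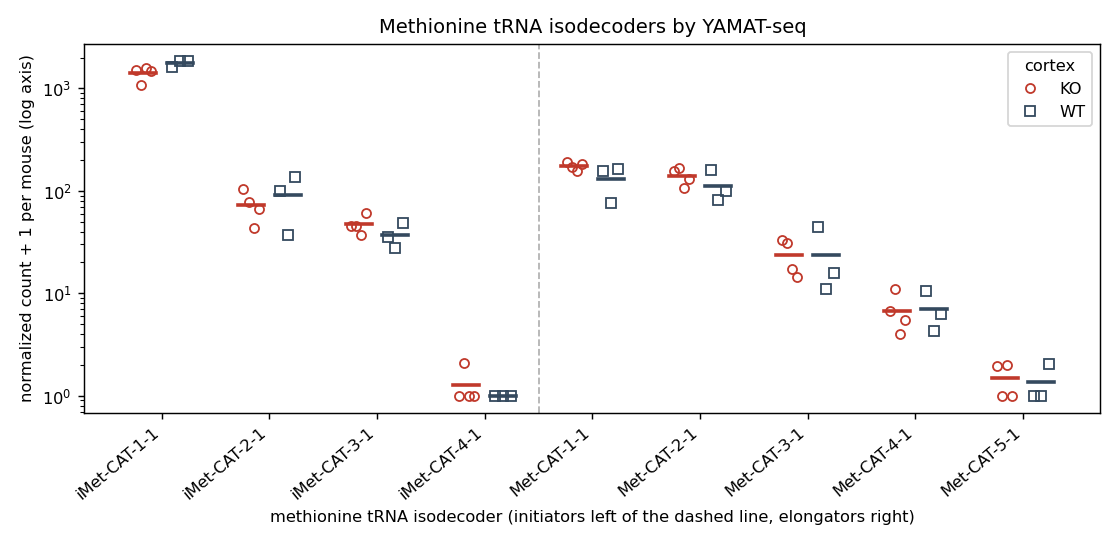
Normalized counts plus 1 (log axis) of each methionine tRNA isodecoder in each mouse by YAMAT-seq, KO circles left of WT squares, bars at the means, initiators left of the dashed line. iMet-CAT-1-1 lies at 1079 to 1584 in KO and 1608 to 1861 in WT, above every other member.

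The most abundant elongators by YAMAT-seq, Met-CAT-1-1 and Met-CAT-2-1, had higher KO than WT means, without passing the test. Of this pair, only Met-CAT-1-1 was higher in KO by dm-Hydro-tRNAseq, which used mice shared with YAMAT-seq. Met-CAT-1-1 had 190, 169, 155 and 181 normalized counts in KO, against 156, 74.6 and 162 in WT. WT mouse 2, the shallowest library, was well below the rest, and KO mouse 3 was just under WT mouse 1. The log2 fold change of 0.49 (−0.05 to 1.03, adjusted p = 0.175) was 0.13 (adjusted p = 0.699) without WT mouse 2. Met-CAT-2-1 had 154, 166, 106 and 130 in KO, against 157, 79.6 and 97.8 in WT, a log2 fold change of 0.35 (adjusted p = 0.346) that was 0.14 without WT mouse 2 and 0.63 without WT mouse 1 or with libraries divided by their sums. Met-CAT-3-1 had 32.4, 29.8, 16.1 and 13.3 in KO, against 43.8, 9.95 and 14.9 in WT, and its WT values spanned its whole range. Met-CAT-4-1 was between 3.02 and 9.95 in KO and between 3.32 and 9.61 in WT, too low to be tested, and Met-CAT-5-1 was listed at 0 in 4 of 7 libraries.

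Of the 6 members with a mean of at least 10 normalized counts, 0 passed the adjusted threshold and 0 had an unadjusted p under 0.05 (limma), beside 8.43% and 33.1% of the 166 tRNAs tested. Of the 3 initiators tested, 2 were negative (iMet-CAT-2-1 was 0.066 when libraries were divided by their sums), and all 3 elongators were positive, beside 49.4% positive over all tRNAs. In the WT order (iMet-CAT-1-1, Met-CAT-1-1, Met-CAT-2-1, iMet-CAT-2-1, iMet-CAT-3-1, Met-CAT-3-1, Met-CAT-4-1, Met-CAT-5-1, iMet-CAT-4-1) the neighbours with separate ranges were iMet-CAT-1-1 with Met-CAT-1-1, Met-CAT-3-1 with Met-CAT-4-1, and Met-CAT-4-1 with Met-CAT-5-1. The mitochondrial methionine tRNA, which reads methionine codons on mitochondrial ribosomes, had 861, 618, 1012 and 908 normalized counts in KO, against 999, 1323 and 1120 in WT. Its log2 fold change of −0.45 did not pass the test (adjusted p = 0.0855).

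The difference between KO and WT was set against itself in the 6 mice measured by both assays, as YAMAT-seq minus dm-Hydro-tRNAseq per mouse. It was −0.11 on the log2 scale for iMet-CAT-1-1 (−0.69 to 0.47) and 0.00 for Met-CAT-1-1 (−0.82 to 0.83), so the intervals allow sizeable differences in either direction. The farthest from 0 was iMet-CAT-3-1 at 0.51 (−0.11 to 1.13, adjusted p = 0.422). Of 6 members tested, 0 differed between assays at the adjusted threshold and 0 at an unadjusted p under 0.05 (limma), beside 0% and 11.5% of 130 isodecoders.

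**Figure D3:**
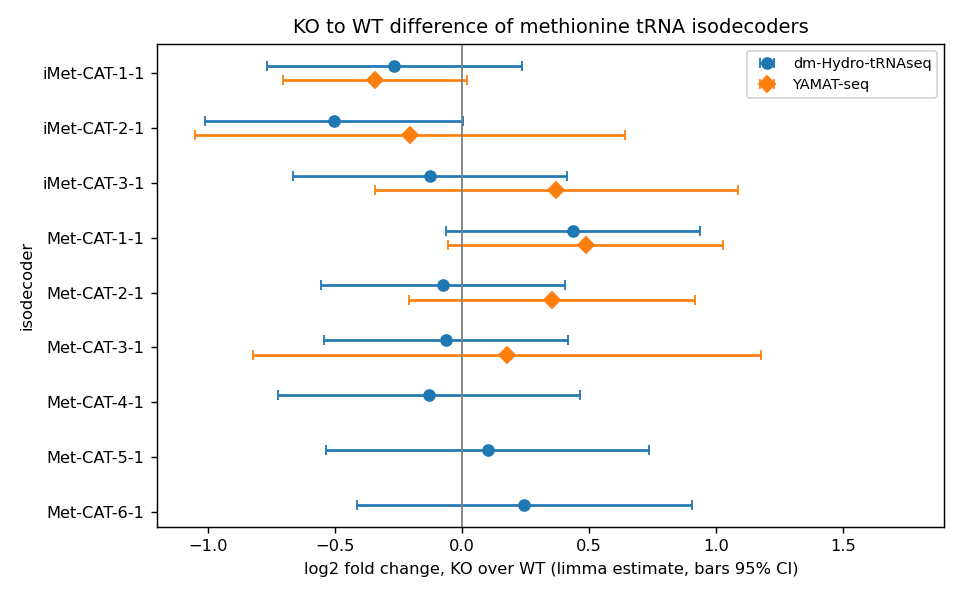
Log2 fold change, KO over WT, of each methionine tRNA isodecoder with its 95% limma interval, by dm-Hydro-tRNAseq and by YAMAT-seq. iMet-CAT-1-1 lies at −0.27 and −0.34 and Met-CAT-1-1 at 0.44 and 0.49, and every interval includes 0.

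Summed by kind, initiators were 886 ± 246 CPM in KO and 1065 ± 115 CPM in WT by dm-Hydro-tRNAseq (SD, n = 3 each). Their log2 fold change was −0.30 (adjusted p = 0.680). The elongator sum was 1584 ± 297 CPM in KO and 1357 ± 51.4 CPM in WT, a log2 fold change of 0.21 (adjusted p = 0.784). With any 1 mouse left out these were −0.51 (without KO mouse 3) to −0.14 (without KO mouse 1) for initiators and 0.062 (without KO mouse 3) to 0.32 (without KO mouse 1) for elongators. Median log ratio scaling gave −0.15 and 0.35. By YAMAT-seq the initiator sum was 1524 ± 218 normalized counts in KO (SD, n = 4) and 1893 ± 152 in WT (SD, n = 3), with −0.32 on the log2 scale (adjusted p = 0.123). Every KO mouse was below every WT mouse in that sum, as for 20.6% of the 68 pools. When libraries were divided by their sums, the initiator difference was −0.045 (adjusted p = 0.729) and the genotypes overlapped as shares of nuclear tRNA (2.00% to 2.30% in KO, 2.03% to 2.74% in WT). Without KO mouse 2 it was −0.21. The YAMAT-seq elongator sum was 342 ± 47.4 in KO and 271 ± 99.8 in WT, with a log2 fold change of 0.39 (adjusted p = 0.178) that was 0.083 without WT mouse 2, 0.65 without WT mouse 1 and 0.67 with libraries divided by their sums. Neither kind passed the test in either assay, beside 4.17% of 48 pools by dm-Hydro-tRNAseq and 5.88% of 68 pools by YAMAT-seq. The unadjusted p was 0.0577 or higher for both kinds in both assays, beside 14.6% and 45.6% of pools under 0.05.

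The ratio of initiator to elongator within a mouse needs no scaling between libraries. By dm-Hydro-tRNAseq it was 0.520, 0.532 and 0.608 in KO mice, against 0.691, 0.836 and 0.828 in WT mice. The genotypes did not overlap, and the ratio averaged 0.553 ± 0.0474 in KO and 0.785 ± 0.0813 in WT (SD, n = 3 each). On the log2 scale the difference was −0.50, and −0.59 to −0.45 with any 1 mouse left out. Initiators thus made up 35.6% ± 1.93 of nuclear methionine tRNA in KO and 43.9% ± 2.62 in WT. With only the most abundant isodecoder of each kind, the ratio of iMet-CAT-1-1 to Met-CAT-1-1 was 0.535 ± 0.0128 in KO and 0.874 ± 0.0715 in WT, a log2 difference of −0.71. The ratio is a score over members chosen with results known, and is given as a description. How often ratios of other pools separate between genotypes was not counted. Relative to the elongator pool, 89.4% of the 47 other pools by dm-Hydro-tRNAseq had a negative log2 fold change, so a lower ratio was common.

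By YAMAT-seq the ratio was 4.29, 3.20, 5.91 and 4.84 in KO mice, against 4.75, 11.3 and 7.29 in WT mice. The genotypes overlapped, since WT mouse 1 lay below KO mice 3 and 4. The mean was 4.56 ± 1.13 in KO (SD, n = 4) and 7.78 ± 3.31 in WT (SD, n = 3), a log2 difference of −0.72. The WT mean rests on WT mouse 2, and without it the log2 difference was −0.40.

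**Figure D4:**
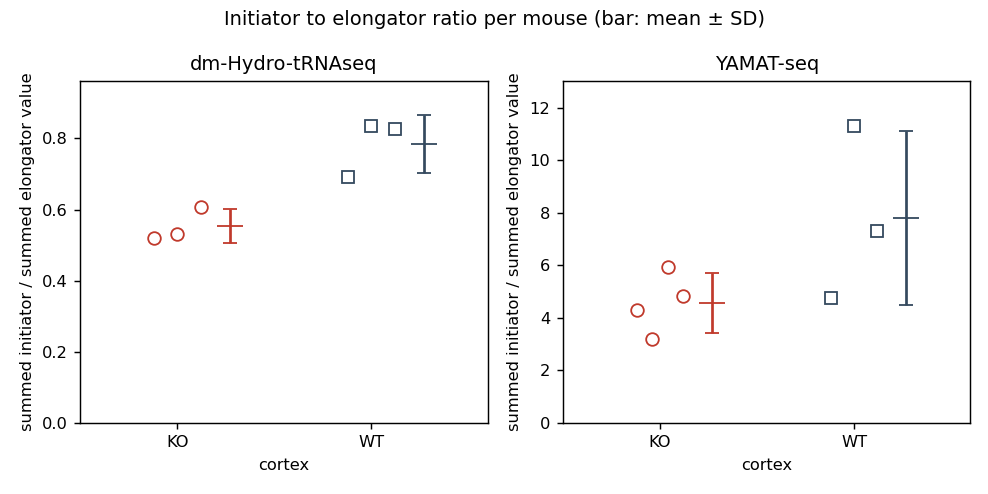
Ratio of summed initiator to summed elongator methionine tRNA in each mouse, for dm-Hydro-tRNAseq and YAMAT-seq on axes of their own from 0, KO left of WT, bars giving the mean and SD. The dm-Hydro-tRNAseq ratios are 0.520 to 0.608 in KO and 0.691 to 0.836 in WT, while the YAMAT-seq ratios overlap.

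The difference between the kinds was also read from a fit over all other pools, each set relative to the elongator pool of its library. This scaling was chosen after seeing the data, and the pairing behind the block comes from the data too. The fit takes up the same contrast as the ratio, whose members were chosen with results known, so its p-values are a description. By dm-Hydro-tRNAseq the initiator pool was lower in KO relative to the elongator pool by a log2 fold change of −0.50 (SE 0.18, adjusted p = 0.0340 over 47 pools, limma), and with the mouse number as a block the adjusted p was 7.5e-05. Relative to the elongator pool, 29.8% of the 47 pools were called lower (51.1% with the block) and 89.4% were negative, so the initiator pool was 1 of many. The call without the block was lost in 4 of 6 fits that each left out a mouse, with adjusted p = 0.172 and 0.0890 on removal of KO mouse 1 or 2 (−0.46 and −0.48), and adjusted p = 0.127 and 0.0731 on removal of WT mouse 2 or 3 (−0.45 and −0.46). By YAMAT-seq the value was −0.72 (SE 0.46, adjusted p = 0.293), with 0 of 67 pools called and 10.4% at an unadjusted p under 0.05.

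Within each kind, shares of single isodecoders are given as a description, and a share depends on the other members of its sum. How often shares of other tRNAs separate between genotypes was not counted, and how dm-Hydro-tRNAseq reads divide within a kind is uncertain. Met-CAT-1-1 was 57.4% ± 2.65 of the elongator sum in KO and 48.9% ± 1.83 in WT by dm-Hydro-tRNAseq (SD, n = 3 each), with ranges of 54.4% to 59.6% and 47.3% to 50.9% that did not overlap. Met-CAT-3-1 held 15.2% ± 1.24 in KO and 18.3% ± 1.03 in WT, while its own level was 239 ± 36.7 CPM in KO and 247 ± 4.72 CPM in WT. By YAMAT-seq Met-CAT-1-1 was 51.3% ± 4.88 of the elongators in KO (n = 4) and 48.2% ± 8.15 in WT (n = 3), less than the spread between mice. Among initiators, iMet-CAT-1-1 held 55.6% ± 3.22 in KO and 54.5% ± 1.88 in WT by dm-Hydro-tRNAseq, and 92.0% ± 2.34 in KO and 93.4% ± 2.96 in WT by YAMAT-seq. Its share differed by less than the spread between mice in both assays, and was higher by YAMAT-seq than by dm-Hydro-tRNAseq in both genotypes. iMet-CAT-2-1 held 21.5% ± 0.404 of the initiators in KO (21.2% to 21.9%) and 25.0% ± 2.73 in WT (22.9% to 28.1%) by dm-Hydro-tRNAseq, without overlap.

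The genes that charge, deliver, modify and use methionine tRNA were read from the Riboseq mice, as mRNA level and as ribosome footprints (normalized values, 2 KO and 2 WT mice). Of 42 genes listed, 40 were measured, as 41 transcripts. For mRNA, 4 were higher and 1 lower in KO (limma, adjusted p under 0.05), beside 1.5% higher and 1.65% lower of 10674 transcripts. For footprints, 1 was higher and 1 lower, beside 0.206% and 0.384%. The median log2 fold change over the listed transcripts was 0.17 for mRNA and 0.08 for footprints, beside 0.04 and 0.00 over all transcripts.

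Nsun2 itself was lower in KO at both levels, with a log2 fold change of −1.72 in mRNA (adjusted p = 4.5e-05). Its footprints were 30.4 and 23.0 in KO, against 130 and 114 in WT, or 21.8% of WT (log2 fold change −2.16). Of the initiation group, all 16 genes had positive mRNA differences, 2 of them called, beside 56% positive of all transcripts. In footprints, 12 of the 16 were positive and 1 was called, beside 50.4% positive of all transcripts. The mRNA tilt was not particular to initiation. Positive mRNA differences were also seen for 3 of 5 charging, 2 of 2 elongation, 7 of 10 base modification and 6 of 8 removal and supply transcripts. The median mRNA log2 fold change was 0.18 for initiation and 0.12 to 0.20 for these groups. In footprints the medians were 0.14 and −0.01 to 0.10.

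Eif2s2, the beta subunit of the eIF2 complex that carries initiator tRNA, rose at both levels. Its mRNA was 1801 and 1939 in KO, against 1087 and 1055 in WT (log2 fold change 0.80, adjusted p = 0.0026). Its footprints were 226 and 234 in KO, against 125 and 131 in WT (0.84, adjusted p = 0.0099). Eif2s1, the alpha subunit that stress kinases phosphorylate, had 730 and 718 mRNA counts in KO, against 633 and 592 in WT, a difference that did not pass the test (0.24, adjusted p = 0.237). Eif1, which guards start codon choice, rose in mRNA (4594 and 5005 in KO, against 3486 and 3561 in WT, 0.44, adjusted p = 0.0347) and not in footprints (−0.08, adjusted p = 0.820).

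Mars, the cytosolic methionyl-tRNA synthetase that charges both kinds, had 716 and 642 mRNA counts in KO, against 432 and 340 in WT (0.82, adjusted p = 0.0136). Its footprints were 222 and 233 in KO, against 161 and 145 in WT, and did not pass the test (0.57, adjusted p = 0.0652). Slc7a5, a transporter of large neutral amino acids including methionine, had 352 and 254 mRNA counts in KO, against 153 and 188 in WT (0.82, adjusted p = 0.0370), with no call in footprints (0.46, adjusted p = 0.353). Neither Mcts1, a factor that can recruit initiator tRNA outside the eIF2 route, nor Metap1, which removes the initiator methionine from new proteins, passed the test in mRNA (0.51 and 0.41, adjusted p = 0.0708 and 0.0790).

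These calls are those of 4 mice. In mRNA fits that each left out a mouse, Eif2s2 and Nsun2 were called in all 4, Mars in all but that without WT mouse 2, Slc7a5 only in that without KO mouse 2, and Eif1 in 0 of 4. In footprints Eif2s2 was not called without KO mouse 2. With the mouse number as a block, Nsun2 was the only listed gene called at either level. That block left 6 of 10674 transcripts called in mRNA, against 336 without it, and 3 against 63 in footprints. Same-numbered libraries had r = −0.109 in mRNA and −0.149 in footprints. With 2 mice per genotype the crossed pairing has the same r with the opposite sign, so these values cannot decide whether the block applies. Summed marker mRNA also differed between these mice. Inhibitory neuron markers were 7471 to 7716 in KO and 5640 to 5921 in WT, with 3 of 4 above WT in both KO mice, and excitatory neuron markers 38629 to 40567 in KO and 43552 to 44290 in WT, with 1 of 5 (Camk2a) below WT in both. Endothelium and blood markers were 820 to 890 in KO and 494 to 683 in WT (2 of 3 measured above WT in both KO mice), and microglia markers 231 to 264 in KO and 333 to 405 in WT (1 of 3 below). Astrocyte markers were 2708 to 2892 in KO and 2532 to 3328 in WT (1 of 3 above), and oligodendrocyte markers 6493 to 6797 in KO and 5734 to 7654 in WT (0 of 3). No measured marker was at 0, and the part of these differences in the pathway values was not tested.

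**Figure D5:**
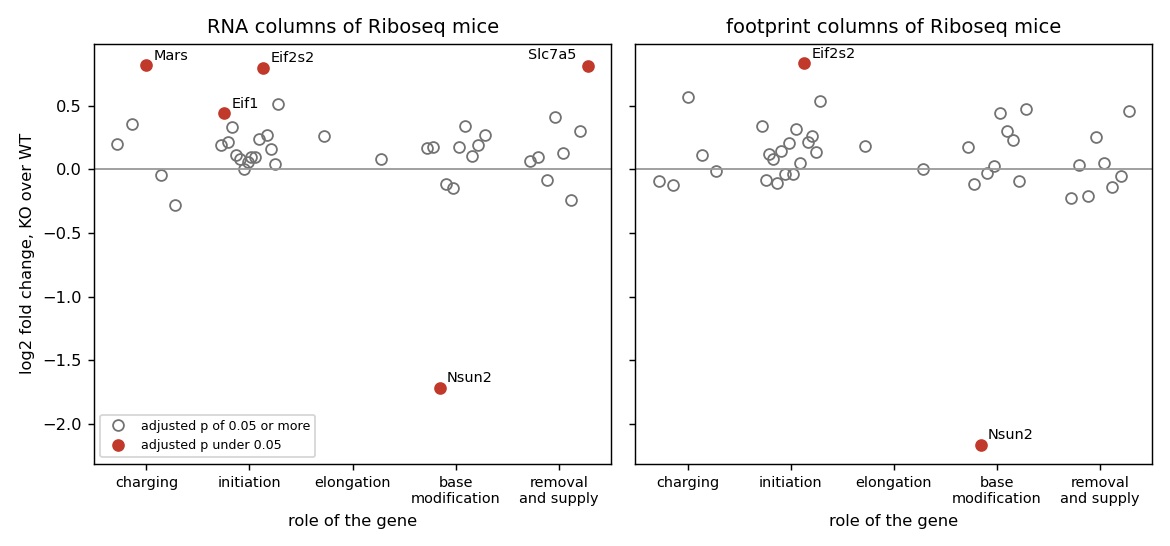
Log2 fold change, KO over WT, of genes that charge, use or modify methionine tRNA or handle methionine, for mRNA and for footprints, by role, filled where the adjusted p is under 0.05. Nsun2 is at −1.72 and −2.16, and Eif2s2 at 0.80 and 0.84 is the only other gene filled in both panels.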

How the data were processed

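Nsun2 KO and WT cortex of 17 of 103 samples was analysed, and the other 86 were not used here. For dm-Hydro-tRNAseq adapters were removed with cutadapt, BWA placed reads on mature tRNA sequences with few mismatches allowed, counts were corrected for reads matching several tRNAs, and the authors deposited CPM of the 162 isodecoders that averaged 20 CPM or more in KO or WT. For YAMAT-seq the authors trimmed, removed duplicates by molecular identifier with UMI-tools, merged read pairs and deposited normalized counts, a signal obtained with DESeq2 size factors; the aligner is not given in the sources used here. For Riboseq the authors deposited a median-normalized signal from Ribolog for RNA and for footprints, the second after a correction for ribosome stalling. The submitters' processing notes name Bowtie2 2.4.2 and SAMtools 1.11, with cutadapt 3.1 and UMI-tools 1.1.1.

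Values were tested as log2(value + 1) with limma 3.58.1 (trend) in R 4.3.3, so fold changes of low members are understated, and p-values were adjusted over each whole table by Benjamini-Hochberg at a threshold of 0.05. YAMAT-seq tRNAs and pools needed a mean of 10, and transcripts a mean footprint value of 10. The study's own tests used read counts. The tables hold normalized values, so limma was used instead. Ratios were computed per mouse, with no test apart from the fit relative to the elongator pool. Tables and figures were made with Python 3.11.15, numpy 2.4.6, pandas 2.3.3 and matplotlib 3.10.9, and sequences read from the RefSeq genome with pysam 0.24.0. The scripts were tested on simulated data. The depth behind CPM and footprints is unknown.

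In dm-Hydro-tRNAseq, deviations from the genotype mean over isodecoders correlated between same-numbered KO and WT libraries (r = 0.489, 0.717 and 0.715). This pairing comes from the data, as no label explains the numbers. Every member is named, with the mitochondrial methionine tRNA, the 3 isodecoders most like each kind, and of the pathway list Nsun2 and up to 6 genes with the smallest p. Eif2s1 was named after its values were seen. The members and lists were chosen with earlier results of these data known. Alternatives were other pseudocounts, filters and scalings, the mouse number as a block, and leaving out each mouse. Some sequences are not reported here.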

Additional observations from a re-analysis of the deposited data

Results flagged for a closer look

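The summed initiator value of KO mouse 2 in YAMAT-seq stood apart from its group, at 1201 normalized counts against 1588 to 1663 in the other 3 KO mice. By chance about 1 in 20 such groups would stand out, and 9 groups of KO values were examined. The same library had the most steps (139036) and the lowest summed signal (76840) of the 7. In dm-Hydro-tRNAseq, where this animal is KO mouse 1, its initiator sum of 698 CPM was also the lowest. Without it, the YAMAT-seq initiator pool had a log2 fold change of −0.21 (limma, adjusted p = 0.201). The part of depth in this value was not tested.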

How the results depend on the processing

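Of 282 alternative values for members and pools, 247 kept their direction and side of the threshold, 29 turned direction, 2 gained a call and 4 lost one. Each library divided by its sum turned Met-CAT-2-1 to 0.0087 and Met-CAT-3-1 to 0.019 in dm-Hydro-tRNAseq, iMet-CAT-2-1 to 0.066 in YAMAT-seq, and the assay difference of iMet-CAT-1-1 to 0.051 (log2). Median log ratio scaling turned iMet-CAT-3-1 to 0.015, Met-CAT-2-1 to 0.069, Met-CAT-3-1 to 0.079 and Met-CAT-4-1 to 0.0094 in dm-Hydro-tRNAseq, and gave 1 member called (Met-CAT-1-1). Scaling shifts the median of all isodecoders (dm-Hydro-tRNAseq −0.13 as deposited, −0.05 by sum, YAMAT-seq −0.02 as deposited, 0.25 by sum). The most abundant isodecoders alone gave a dm-Hydro-tRNAseq ratio difference of −0.71. The causes were not tested.

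With 1 mouse left out, dm-Hydro-tRNAseq log2 fold changes ranged from −0.73 to −0.34 for iMet-CAT-2-1 (called without KO mouse 3, adjusted p = 0.0188), −0.42 to 0.083 for iMet-CAT-3-1, −0.19 to 0.013 for Met-CAT-3-1, −0.50 to 0.11 for Met-CAT-4-1, −0.25 to 0.39 for Met-CAT-5-1 and −0.061 to 0.51 for Met-CAT-6-1, with 0 to 1 members called. The initiator pool relative to the elongator pool was −0.59 to −0.45. In YAMAT-seq iMet-CAT-2-1 was −0.75 to 0.18 and Met-CAT-3-1 −0.25 to 0.77. Assay differences were −0.24 to 0.0093 for iMet-CAT-1-1, −0.55 to 0.48 for iMet-CAT-2-1, −0.32 to 0.19 for Met-CAT-1-1 and −0.39 to 0.63 for Met-CAT-3-1. Pathway calls were 2 to 4 for mRNA and 1 to 3 for footprints, where the lone mouse of a genotype is assumed to vary like the other genotype.

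The replicate block changed no call of a member or pool in dm-Hydro-tRNAseq. Same-numbered YAMAT-seq libraries (r = 0.290, −0.590 and 0.00470) hold other pairs of animals than same-numbered dm-Hydro-tRNAseq libraries. In YAMAT-seq, the dm-Hydro-tRNAseq pairs of animals gave r = 0.492 (KO 2, WT 1) and r = 0.473 (KO 3, WT 2). The last pair (KO 4, WT 3) gave r = −0.0365. No block on these pairs was run, and that on YAMAT-seq numbers changed no member's call (13 against 14 tRNAs called). With the replicate block, 1 pathway gene was called for mRNA and 1 for footprints. Same-numbered Riboseq mice had r = −0.109 in mRNA and −0.149 in footprints. With only 2 mice per genotype, the crossed pairing has the same r with the opposite sign, so neither sign decides anything. The crossed pairing, chosen after seeing the data, called 1047 transcripts against 336 for mRNA (7 of the pathway). For footprints it called 434 against 63 (4 of the pathway). The edgeR test on whole YAMAT-seq reads was not run, since too few low values were left to make certain that 1 step is 1 read.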

Other observations

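The tRNAs whose values ran most like each kind across libraries differed between assays. By dm-Hydro-tRNAseq, over 6 libraries and 153 candidates, the closest to the initiator sum were Trp-CCA-6-1 (Pearson r = 0.997), Arg-ACG-1-1 (0.990) and Val-TAC-1-1 (0.986), and the closest to the elongator sum were Ala-AGC-6-1 (0.931), Ala-AGC-7-1 (0.918) and Lys-TTT-2-1 (0.916). By YAMAT-seq, over 7 libraries and 138 candidates, Thr-TGT-2-1 (0.967), Arg-TCT-4-1 (0.960) and Arg-TCT-1-1 (0.955) ran closest to the initiator sum. Ala-AGC-7-1 (0.980), Trp-CCA-5-1 (0.951) and Ile-AAT-1-1 (0.950) ran closest to the elongator sum, so Ala-AGC-7-1 was among the closest 3 to the elongators in both assays. These are descriptions over log2 values of libraries that share scaling and depth, with 6 mice common to the assays, and the highest of many candidates is high by selection.

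Initiators were 0.197% ± 0.0366 of the listed nuclear tRNA in KO and 0.226% ± 0.0168 in WT by dm-Hydro-tRNAseq (SD, n = 3 each). By YAMAT-seq they were 2.20% ± 0.134 in KO (SD, n = 4) and 2.34% ± 0.366 in WT (SD, n = 3). Elongators were 0.355% ± 0.0411 in KO and 0.289% ± 0.0105 in WT by dm-Hydro-tRNAseq, with every KO mouse above every WT mouse (0.308% or more in KO, 0.300% or less in WT). How many other pools separate as shares was not counted. As CPM, the elongator sums overlapped, at 1341 to 1916 in KO and 1304 to 1407 in WT. By YAMAT-seq the elongator shares were 0.502% ± 0.104 in KO and 0.344% ± 0.151 in WT, and overlapped.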
